A study of Mus musculus with 36 samples.

Results

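A group of 29 genes was raised early in the conversion of B cells into macrophages by C/EBPα and had dropped below its starting level by the last timepoint, whichever form of C/EBPα was used. The genes were chosen by their values. In the log2 normalized tables, the mean of the replicates had to be 5 or more at 0 hr in every construct, to rise by 1 or more from 0 to 6 hr in each, and to lie 1 or more below the 0 hr mean at 120 hr in each. Of 19067 genes in these tables, 12180 passed the first condition. Of those, 295 also rose at 6 hr, 2636 also fell at 120 hr, and 29 did both. Members reported by name are Adam12, Angptl7, Col5a3, Cxcl14, Dcn, Dnm3os, Elfn1, Ereg, Fbln1, Gjb2, Il1r1, Inhba, Kcne4, Klhl29, Lox, Mmp3, Pcsk5, Plat, Plpp3, Stc1, Tcim, Tfpi2, Timp1, Tnc, Wnt11 and Zfp469.

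The libraries came from mouse bone marrow B cells infected with a retrovirus that carries C/EBPα fused to the estrogen receptor (ER) and human CD4 as a sorting marker. Estradiol brings the fusion into the nucleus and so starts the B cell to macrophage transdifferentiation (BMT). There were 3 constructs: the wild-type protein (WT), R35A, in which an arginine of the transactivation region is replaced by alanine, and R35K, in which it is replaced by lysine. Each was sampled before induction (0 hr) and after 1, 3, 6, 18 or 120 hr of it, with 2 replicates, which gives 18 groups and 36 libraries of 13044456 to 23131776 counts (median 15471230). In all groups, also at 0 hr, the cells carried the ER fusion, had been selected for human CD4 and were plated on inactivated mouse embryonic fibroblasts (feeders), which were removed at harvest by differential attachment to culture dishes. The labels name IL-7 in the medium. The study's methods add IL-3, FLT-3, CSF-1 and SCF for the conversion and say that medium without IL-7 was given at later changes, so that at 120 hr medium and induction time cannot be told apart. The labels do not say how long the cells had been on feeders at 0 hr. Nothing in the labels says that replicates came from separate animals, so p-values measure only the spread between these samples.

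Most of these genes are best known from fibroblasts and other stromal cells rather than from B cells or macrophages. Stromal cells build the extracellular matrix and remodel it with secreted proteases, whose activity is held in check by secreted inhibitors such as TIMPs. They also signal to their neighbours with growth factors of the TGF-β, EGF and Wnt families, and many of the genes involved respond to TGF-β, to cytokines or to a change of culture.

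By role, the proteases and inhibitors of proteases include Mmp3 (stromelysin, which degrades matrix), Adam12, Pcsk5 (a proprotein convertase), Plat (tissue plasminogen activator), and the inhibitors Timp1 and Tfpi2. Another 5 are matrix proteins or an enzyme acting on them: Tnc (tenascin C), Dcn (decorin), Fbln1 (fibulin), Col5a3 (a collagen V chain) and Lox (which crosslinks collagen and elastin). Signalling proteins number 7: Inhba (the βA subunit of activins), Wnt11, Ereg (epiregulin, an EGF receptor ligand), Cxcl14, Stc1 (stanniocalcin), Angptl7, and Il1r1, the interleukin 1 receptor. Membrane proteins include the connexin Gjb2, the potassium channel subunit Kcne4 and the lipid phosphatase Plpp3. Others are Dnm3os, Elfn1, Klhl29, Tcim and Zfp469. In the GENCODE vM21 annotation of GRCm38, 27 of the 29 are protein coding. Dnm3os is a noncoding RNA on the strand opposite Dnm3, and Zfp469 is listed as a lincRNA that overlaps Gm20388. Timp1 lies within Syn1 and Angptl7 within Mtor, each on the opposite strand. Which strand the counting used is not stated, so reads of these pairs may be shared.

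The promoters of 4 members are shown because they hold a C/EBP or AP-1 word, the first being that of the induced factor itself. Mmp3 is the member with the largest mean rise at 6 hr, Inhba is one of the most abundant, Il1r1 lies close to the threshold, and Tfpi2 differed most between R35A and WT at 1 hr. The sequences are from RefSeq on GRCm38.p6, span 300 bases around an annotated start, of which the last 50 follow it, and are written along the gene's strand. Capitals mark the motif matches, which are the C/EBP core TTGCNNAA or the AP-1 word TGANTCA on either strand.
Mmp3, chr9:7445572-7445871, plus strand: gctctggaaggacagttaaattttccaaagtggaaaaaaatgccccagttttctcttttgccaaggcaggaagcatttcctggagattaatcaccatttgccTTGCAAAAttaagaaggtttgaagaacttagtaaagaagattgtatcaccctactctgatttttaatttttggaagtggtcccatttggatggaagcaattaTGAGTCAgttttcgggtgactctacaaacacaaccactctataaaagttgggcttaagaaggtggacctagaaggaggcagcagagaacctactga
Inhba, chr13:16011601-16011900, plus strand: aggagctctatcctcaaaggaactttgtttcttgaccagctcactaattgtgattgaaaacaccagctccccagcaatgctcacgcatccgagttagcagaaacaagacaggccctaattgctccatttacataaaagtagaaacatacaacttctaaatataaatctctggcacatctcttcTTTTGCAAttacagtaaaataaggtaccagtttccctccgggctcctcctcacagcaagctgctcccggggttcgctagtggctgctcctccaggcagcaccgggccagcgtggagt
Il1r1, chr1:40224830-40225129, plus strand: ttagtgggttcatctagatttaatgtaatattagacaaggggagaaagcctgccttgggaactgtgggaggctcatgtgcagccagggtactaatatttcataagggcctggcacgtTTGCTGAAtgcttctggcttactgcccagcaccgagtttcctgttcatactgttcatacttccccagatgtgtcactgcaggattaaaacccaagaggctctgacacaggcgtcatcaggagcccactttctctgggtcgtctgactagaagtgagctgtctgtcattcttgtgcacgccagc
Tfpi2, chr6:3968326-3968625, minus strand: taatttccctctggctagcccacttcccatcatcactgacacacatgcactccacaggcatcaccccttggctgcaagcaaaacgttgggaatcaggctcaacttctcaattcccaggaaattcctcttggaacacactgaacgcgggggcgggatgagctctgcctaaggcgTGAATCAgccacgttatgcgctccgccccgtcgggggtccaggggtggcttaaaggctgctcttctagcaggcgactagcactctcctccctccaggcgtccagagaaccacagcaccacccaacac

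Mmp3 alone among these 4 held both motifs, its C/EBP core 148 bases and its AP-1 word 46 bases before the start. Inhba held the core 67 bases before its start, on the other strand, and Il1r1 held it 133 bases before. The Tfpi2 window is that of a start inside the annotated gene, with the AP-1 word 77 bases before it. The other RefSeq starts of Il1r1 and Tfpi2 held none of the motifs searched. The table had 24 promoters for 18 of the 29 members. TTGCNNAA was in 3 of the 24 (12.5%) and in 10.8% of all 32851 promoters of the table, and TGANTCA was in 2 (8.33%) against 7.81%. The E-box CACGTG was in 3 promoters of Fbln1 and Kcne4 (12.5%, against 7.15%). Neither GAGGAAGT, the PU.1 word, nor the CRE word TGACGTCA was in any, and 3.2% and 1.79% of all promoters held them. These words are a description of the windows and say nothing of binding.

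The members covered a wide range of levels at 0 hr, and those at the top were abundant transcripts. Per kilobase of exon, the median over the 6 libraries at 0 hr was 3548 normalized counts for Timp1, 2937 for Tnc, 1277 for Lox and 605 for Inhba. At the other end lay Pcsk5 with 4.83 and Klhl29 with 8.68 normalized counts per kilobase. Together the 29 genes took 0.385 to 0.407% of all counts at 0 hr, 0.657 to 1.23% over the libraries from 1 to 18 hr, and 0.0145 to 0.0367% at 120 hr. In this summed share the 0 hr libraries of the 3 constructs lay close together, though those of single members such as Tfpi2 were apart.

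Changes from 0 hr are given as a description, since the 0, 6 and 120 hr values chose the members and the other timepoints share the 0 hr libraries. All levels below are log2(normalized count + 1). In WT cells the median member was 1.22 above its 0 hr mean at 1 hr, 1.39 at 3 hr, 1.35 at 6 hr and 1.36 at 18 hr, and at 120 hr the change from 0 hr was -4.06. With R35A the median rise was 1.69 already at 1 hr and then 1.52, 1.52 and 1.38, and with R35K it was 1.26, 1.46, 1.21 and 1.01. The median change at 120 hr was -3.20 with R35A and -3.15 with R35K. Most of the rise was thus in place in the first hour, and the mean of a member was highest at 1 hr for 3 members in WT, 18 in R35A and 9 in R35K. By contrast, 6 members were highest at 18 hr in WT (among them Ereg, Klhl29, Plpp3, Timp1 and Zfp469), 3 in R35A (Ereg, Plpp3 and Tcim) and 0 in R35K.

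**Figure D1:**
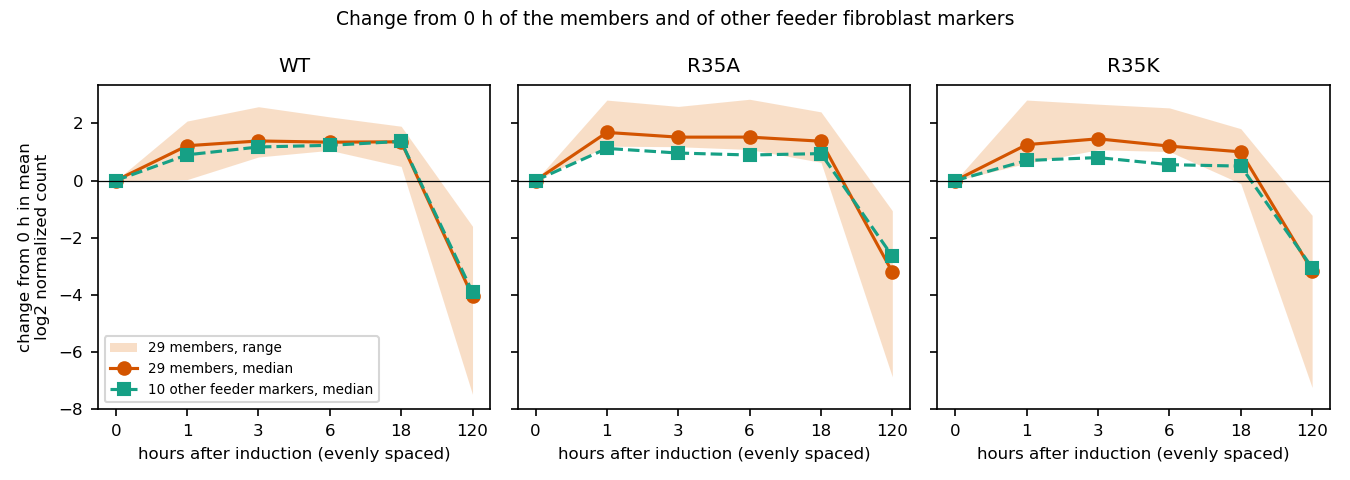
Change from the 0 hr mean in log2 normalized count (y axis) over hours of induction (x axis, evenly spaced) for WT, R35A and R35K; circles and line are the median of the 29 members, shading their range, and squares the median of 10 other markers of feeder fibroblasts. The medians of both sets rose by 1 hr and lay between -2.65 and -4.06 at 120 hr.

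The members fell to different depths. In WT at 120 hr, 10 members had 3 or fewer counts in both libraries (among them Elfn1, Fbln1, Gjb2, Kcne4, Klhl29, Mmp3, Pcsk5, Stc1 and Tfpi2), as did 9 in R35A and 6 in R35K. For these genes the fall is limited by the depth. With every library set to at least 3 counts, the median change was -3.72 in WT, -3.01 in R35A and -3.06 in R35K. Other members were still well detected at 120 hr, so that they were lowered rather than lost: Lox stood at 8.98 and 9.03 in WT and 10.06 and 10.22 in R35A. Near the threshold, the members just inside were Elfn1, Wnt11 and Il1r1, with rises in R35K of 1.02, 1.03 and 1.03. Just outside were Slc6a17 (1.00, before rounding below 1), Itga2 (0.97) and Tm4sf1 (0.96), all for their rise in R35K.

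Because the members resemble stromal genes, the other markers of the feeders were read beside them. A list of 12 feeder fibroblast markers contains Dcn and Fbln1, and the other 10 (Col1a1, Col1a2, Col3a1, Col5a1, Lum, Postn, Thy1, Pdgfra, Pdgfrb and Sparc) rose and fell as a sum and in their median, though not each one. At 6 hr the change of Postn from 0 hr was 0.09 in R35A and -0.11 in R35K, and that of Sparc was 0.03 in R35K. At 120 hr Pdgfra was 0.62 above its 0 hr level in R35A and 0.30 above it in R35K. Their summed share of counts was 0.268 to 0.294% at 0 hr, 0.328 to 0.654% over 1 to 18 hr and 0.0161 to 0.0584% at 120 hr. Their median change from 0 hr in WT was 0.90, 1.18, 1.24 and 1.37 at 1, 3, 6 and 18 hr and -3.91 at 120 hr. In R35A it was 1.13, 0.96, 0.90, 0.95 and -2.65, and in R35K 0.70, 0.81, 0.56, 0.51 and -3.05. In bulk RNA, fewer cells of a type and less RNA per cell cannot be told apart. B cell identity genes fell over the course, from 0.51 to 0.55% of counts at 0 hr to 0.011 to 0.0159% at 120 hr, and macrophage genes rose from 0.00858 to 0.00952% up to 1.96 to 2.88%, while T and NK cell genes stayed between 0.000133 and 0.000772% in all libraries. From 0 to 120 hr, granulocyte genes also rose, from 0.00537 to 0.00697% up to 0.173 to 0.216%, erythroid and megakaryocyte genes from 0.00145 to 0.00177% up to 0.0265 to 0.0565%, and dendritic cell genes from 0.00262 to 0.00294% up to 0.0315 to 0.0429%.

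With every library rescaled so that 9 of the 10 feeder markers (Lum left out) had the same mean, a setting chosen after seeing the data, 1 of the 29 members still met the rule, Gjb2. Gjb2 had 3 or fewer counts in both libraries at 120 hr in each construct, so its fall on this scale is limited by the depth. Its 0 hr means, 5.03 to 5.23 before rescaling, lay just above the minimum of 5. The median rise of the members at 6 hr on this scale was 0.18 in WT, 0.64 in R35A and 0.68 in R35K, and 2, 6 and 6 members still rose by 1 or more. In WT these were Cxcl14 and Gjb2. In both R35A and R35K they included Dcn, Gjb2, Mmp3, Tfpi2 and Timp1, and in R35K also Col5a3. The median change at 120 hr on this scale was -0.11 in WT, -0.21 in R35A and 0.22 in R35K. These medians include the members with 3 or fewer counts in both 120 hr libraries, 10 in WT, 9 in R35A and 6 in R35K. The part of feeder cells in the rise and the fall of the members was not tested.

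**Figure D2:**
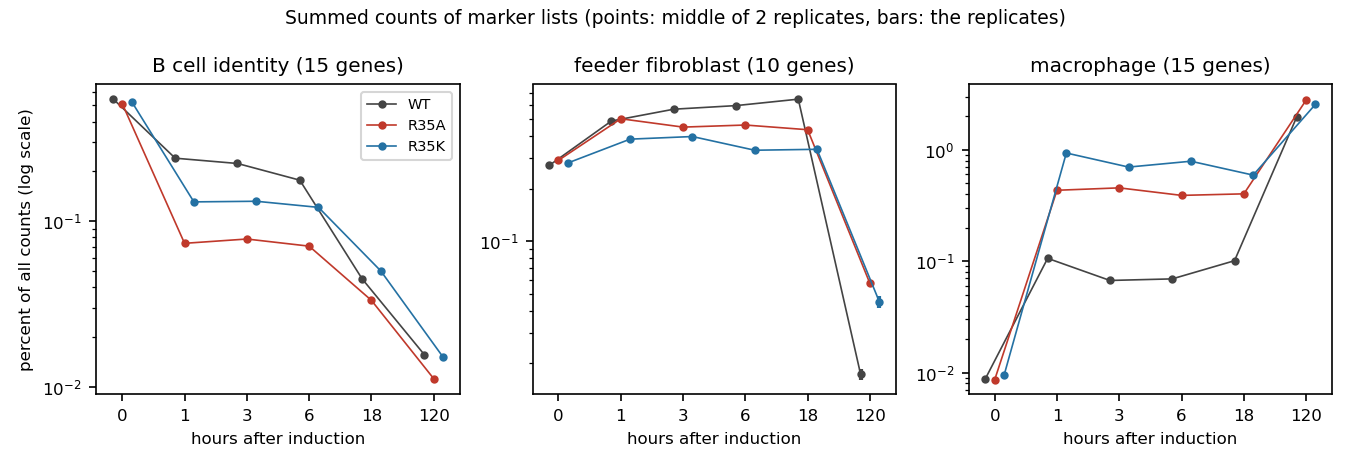
Summed counts of 3 marker lists as a percent of all counts (y axis, log scale) over hours of induction (x axis, evenly spaced); points are the middle of 2 replicates and bars span the replicates, for WT, R35A and R35K. The sum of the 10 feeder fibroblast markers that are no members rose by 1 hr and was lowest at 120 hr, while B cell genes fell and macrophage genes rose.

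The first question open to a test was whether the members differed between the mutants and WT at 1, 3 and 18 hr. The choice of members did not use these timepoints, but it required a rise of 1 or more at 6 hr in every construct. The feeder markers were not chosen so, and their median change at 6 hr was 1.24 in WT, 0.90 in R35A and 0.56 in R35K. Members lying above these markers in a mutant against WT may therefore follow in part from the choice. A gene is called here when it differed by at least 1.5-fold with an adjusted p of 0.05 or less in edgeR's quasi-likelihood test over 17277 genes, fitted to all 36 libraries. All 29 members passed the filter on low counts. Both mutants are compared with the same WT libraries, and the R35K libraries stand in tables of their own, so that table and construct cannot be told apart. The 36 size factors of the authors match a single estimate over all libraries to within 0.00931 on the log2 scale.

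At 1 hr the members were mostly higher with R35A. Of the 29, 10 were called higher and 1 lower, where 9.6% of all genes were called higher and 9.85% lower. The median difference of the members was 0.49 on the log2 scale and that of the 10 feeder markers 0.24. Thy1 (0.60) was the 1 feeder marker called. The 10 members called higher (among them Tfpi2, Dcn, Elfn1, Mmp3, Timp1, Angptl7, Adam12 and Tnc) were also the members that lay above the highest of the feeder markers. That marker, Thy1, lay just above the 1.5-fold threshold of a call, so both cutoffs nearly coincide and the match follows from them.

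Tfpi2, an inhibitor of serine proteases, had the largest difference. It stood at 5.21 and 5.10 in WT at 1 hr, hardly above the 5.16 and 5.08 at 0 hr, and at 7.38 and 7.39 with R35A, a log2 difference of 2.24 ± 0.16 (SE, adjusted p = 4.79e-17). With R35K it reached 5.92 and 6.00, which was 0.85 ± 0.21 above WT (adjusted p = 0.000554). The libraries of the 3 constructs do not overlap at 1 hr. They did not overlap at 0 hr either, where R35A stood at 5.69 and 5.52 and R35K at 5.29 and 5.41. The 1 hr differences are not corrected for those already present before induction. By 3 hr Tfpi2 stood at 5.79 and 6.1 in WT, at 7.72 and 7.63 with R35A and at 7.10 and 7.06 with R35K. At 18 hr it stood at 6.19 and 6.31, 6.14 and 6.35, and 6.64 and 6.63 in that order. WT and R35A overlapped at 18 hr, with a difference of 0.07 that was not called.

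Dcn, a small proteoglycan that binds collagen and TGF-β, was high with both mutants early on. At 1 hr its levels were 9.98 and 10.02 in WT, 11.54 and 11.52 with R35A and 11.35 and 11.36 with R35K. The log2 differences from WT were 1.5 ± 0.04 (SE, adjusted p = 3.59e-35) and 1.38 ± 0.04 (adjusted p = 2.37e-33). At 18 hr the mutants had parted: R35A libraries stood at 11.06 and 11.02, R35K libraries at 9.59 and 9.51, and WT libraries at 9.34 and 9.37. The difference of R35A from WT was then 1.76 ± 0.05 (adjusted p = 3.63e-36), and that of R35K, 0.30, was below the 1.5-fold threshold.

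Mmp3 showed the same order. WT libraries stood at 9.55 and 9.46 at 1 hr, 9.48 and 9.60 at 3 hr and 8.70 and 8.58 at 18 hr. With R35A the values were 10.61 and 10.70, 10.78 and 10.79, and 10.63 and 10.57. With R35K they were 10.56 and 10.51, 10.36 and 10.35, and 8.71 and 8.60. R35A was thus above WT at all of these timepoints, with a log2 difference of 2.03 ± 0.06 at 18 hr (SE, adjusted p = 4.97e-35). R35K was above WT at 1 hr (1.06 ± 0.05, adjusted p = 4e-24) and at 3 hr (0.82 ± 0.05, adjusted p = 9.84e-20), while at 18 hr the difference was 0.12 and was not called.

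Timp1, the inhibitor of Mmp3 and related proteases, rose in all constructs and most with R35A. Its 1 hr levels were 12.47 and 12.51 in WT, 13.62 and 13.60 with R35A and 12.88 and 12.86 with R35K, with no overlap between constructs. The difference of R35A from WT was 1.09 ± 0.04 at 1 hr (SE, adjusted p = 5.29e-31) and 0.64 ± 0.04 at 18 hr (adjusted p = 5.32e-21). The latter came to 0.57 with DESeq2's size factors, below the 1.5-fold threshold. With R35K the differences, 0.41, 0.32 and 0.33 at 1, 3 and 18 hr, stayed below 1.5-fold.

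Stc1, a secreted glycoprotein hormone, went the other way and was the 1 member called lower in both mutants at 1, 3 and 18 hr. At 3 hr it stood at 8.76 and 8.63 in WT, 7.54 and 7.58 with R35A and 7.94 and 7.85 with R35K. The log2 difference at 3 hr was -1.17 ± 0.09 with R35A (SE, adjusted p = 2.44e-16) and -0.80 ± 0.08 with R35K (adjusted p = 5.51e-12). It was -0.70 and -0.89 at 1 hr, and -0.68 and -1.06 at 18 hr. Without the second WT library at 1 hr, the R35A difference was -0.58 and was no longer called. Size factors were also taken from the feeder markers, a setting chosen after seeing the data. Lum, without counts at 120 hr, does not enter these factors. On that scale 3 of the 6 calls were lost: R35A at 18 hr (-0.10), R35K at 3 hr (-0.29) and R35K at 18 hr (-0.19).

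**Figure D3:**
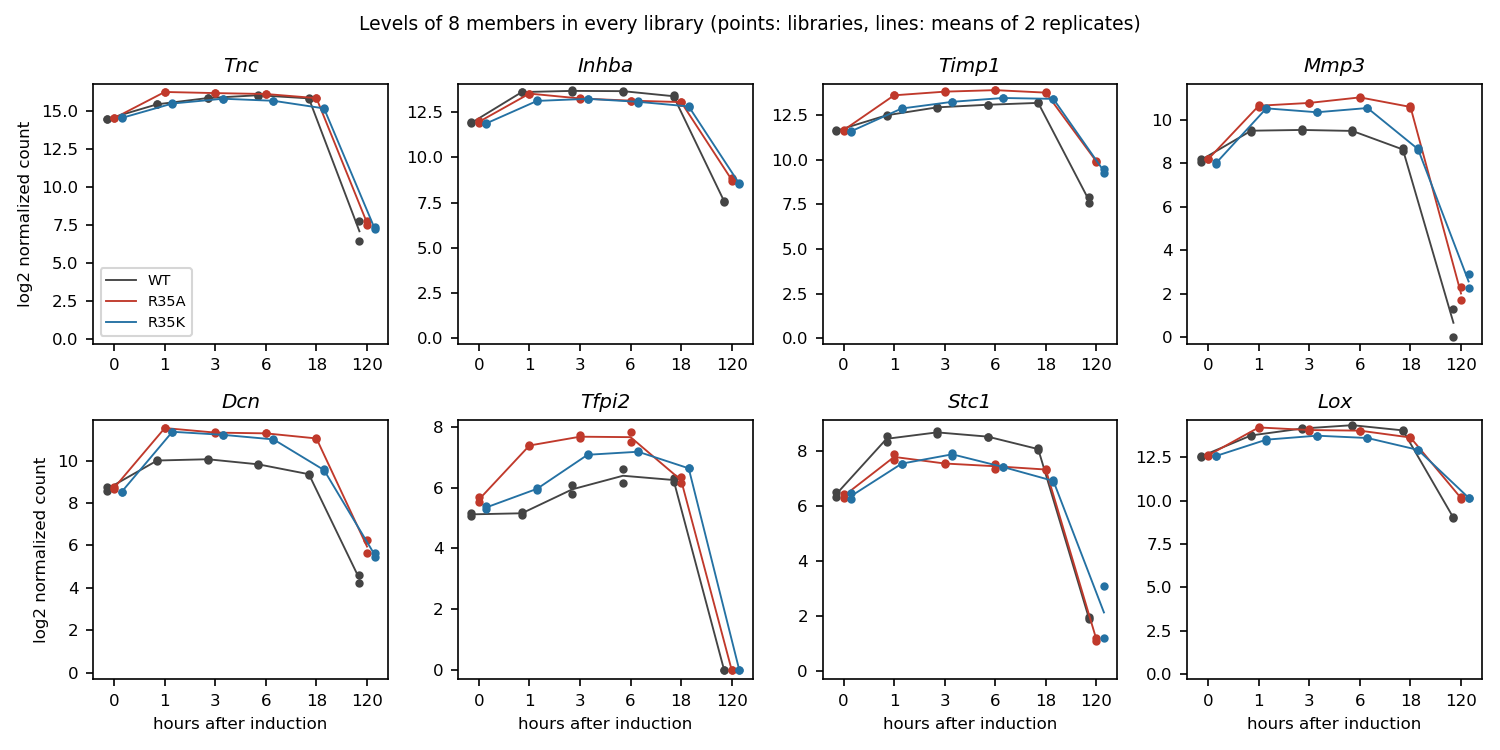
Level of 8 members as log2 normalized count (y axis) over hours of induction (x axis, evenly spaced); points are single libraries and lines the mean of 2 replicates for WT, R35A and R35K. Mmp3, Dcn and Tfpi2 were above WT in both mutants at 1 hr and Stc1 was below, and all 8 were lowest at 120 hr.

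At 3 hr, 7 members were called higher with R35A (among them Tfpi2, Dcn, Mmp3, Timp1, Angptl7 and Pcsk5) and Stc1 lower, beside 8.41% of all genes higher and 8.37% lower. The median difference was 0.14 for the members and -0.23 for the feeder markers, of which Col3a1 and Postn were called lower. At 18 hr, 5 were higher with R35A (among them Mmp3, Dcn, Angptl7 and Timp1) and Stc1 lower, beside 7.02% and 2.99% of all genes, with medians of 0.14 for the members and -0.34 for the feeder markers. Of these markers Lum was called higher (1.38), and Postn, Sparc, Col1a1 and Col5a1 lower.

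With R35K at 1 hr, 4 members, among them Dcn, Mmp3 and Tfpi2, were called higher and Stc1 lower, beside 9.24% and 5.99% of all genes. The median difference was 0.21 for the members and -0.12 for the feeder markers, with 0 of 10 markers called. At 3 hr, Dcn, Tfpi2 and Mmp3 were higher and Stc1 lower, beside 8.24% and 4.76% of all genes. The medians were 0.10 for the members and -0.37 for the feeder markers, of which Col1a1, Postn and Sparc were called lower.

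At 18 hr 7 of the 29 members were called lower with R35K than with WT, and 9 had a difference above 0. Among the 7 were Stc1, Lox, Cxcl14, Klhl29, Kcne4 and Fbln1, and 0 of 29 were called higher, beside 10.5% of all genes called higher and 4.78% lower. Lox stood at 14.00 and 14.09 in WT and 12.92 and 12.92 with R35K, a log2 difference of -1.02 ± 0.04 (SE, adjusted p = 6.88e-31). Cxcl14, a chemokine made by stromal and epithelial cells, stood at 11.41 and 11.42 against 10.39 and 10.45, a difference of -0.89 ± 0.04 (adjusted p = 1.01e-25). Libraries of the 2 constructs did not overlap for either gene.

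The feeder markers were also lower in R35K at 18 hr, with a median difference of -0.76 and 6 of 10 called lower (Col1a1, Sparc, Col1a2, Col5a1, Postn and Col3a1). That of the members was -0.25. With size factors taken from the feeder markers, 15 members were called higher and 0 lower. None of the 7 calls was kept: Lox (-0.15), Cxcl14 (-0.02) and Stc1 (-0.19) were no longer called, and Fbln1 (0.17), Kcne4 (0.09) and Klhl29 (0.03) changed sign. On that scale 13 were higher and 1 lower in R35A at 3 hr, 19 and 0 in R35A at 18 hr, 10 and 1 in R35K at 1 hr, and 16 and 0 in R35K at 3 hr. These counts are not free of the choice of members, which required a rise at 6 hr in both mutants. The part of feeder cells in these differences was not tested.

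**Figure D4:**
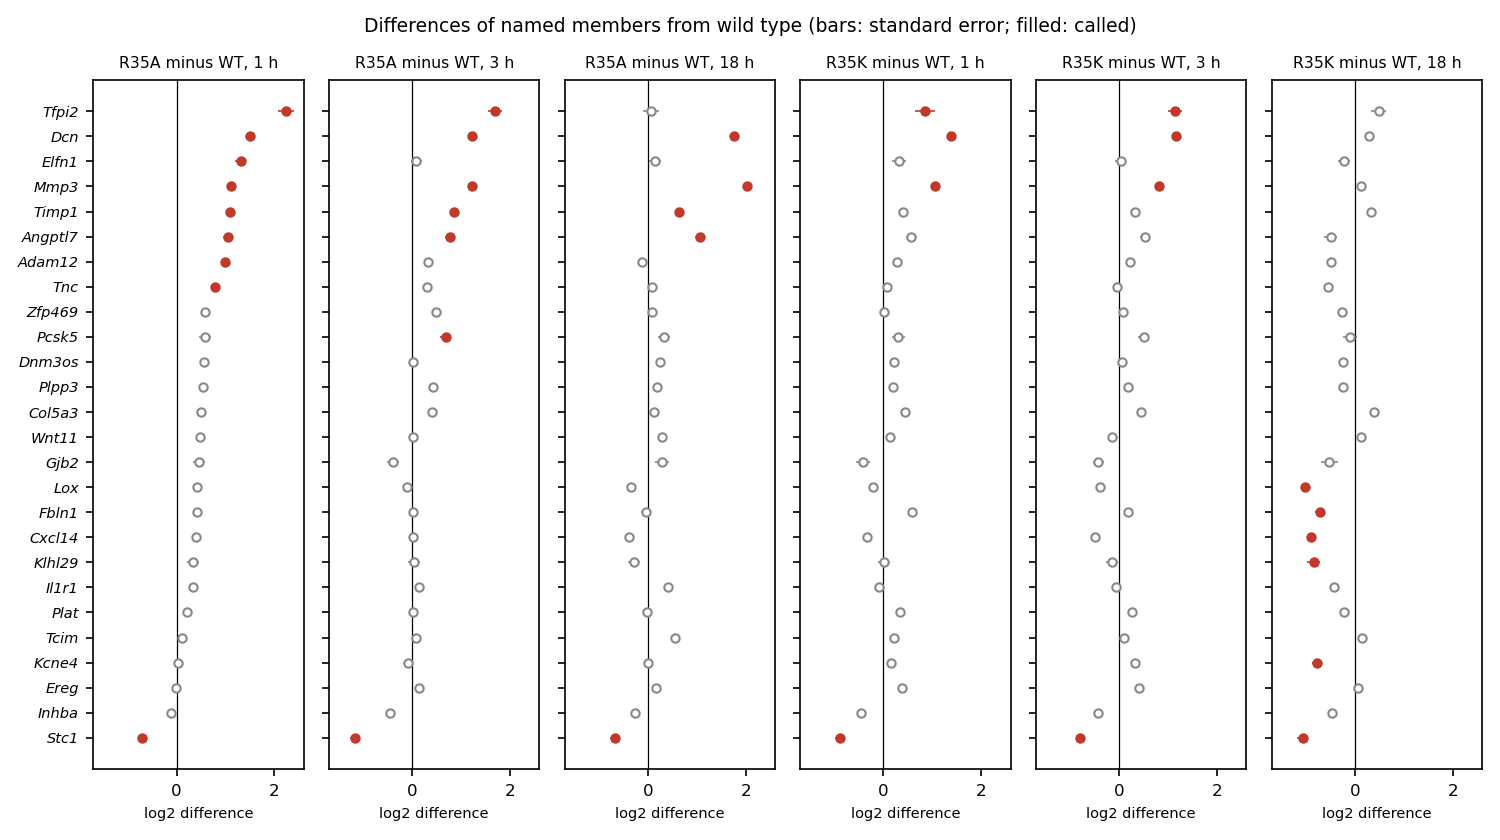
Log2 difference from WT (x axis) of each member reported by name (y axis) for R35A and R35K at 1, 3 and 18 hr; bars are the standard error and filled points the members called. Tfpi2, Dcn and Mmp3 lay to the right at 1 and 3 hr in both mutants, Stc1 to the left in all 6 panels, and Lox, Cxcl14, Klhl29, Kcne4 and Fbln1 to the left for R35K at 18 hr.

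Over both mutants and the 3 timepoints, 18 members were called in at least 1 comparison with WT and 11 in none. The 11 were Col5a3, Dnm3os, Ereg, Gjb2, Il1r1, Inhba, Plat, Plpp3, Tcim, Wnt11 and Zfp469, with differences of -0.52 to 0.58. Stc1 was called in all 6 comparisons, Dcn and Mmp3 in 5, and Tfpi2 in 4.

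Among the secreted signals, Inhba had its highest levels in WT. It stood at 11.94 and 11.88 in WT at 0 hr, 13.61 and 13.63 at 1 hr, 13.33 and 13.45 at 18 hr and 7.6 and 7.56 at 120 hr. With R35A it reached 13.54 and 13.53 at 1 hr and 13.07 and 13.06 at 18 hr, and with R35K 13.1 and 13.16, then 12.82 and 12.83. All 6 differences from WT were negative (-0.46 to -0.12) and none was called. Ereg was nearly flat from 1 to 18 hr, between 11.27 and 11.89 over all constructs. At 120 hr it still stood at 7.43 and 7.24 in WT, 9.01 and 9 with R35A, and 8.47 and 8.4 with R35K. Il1r1 also stayed detected at 120 hr, at 6.11 and 6.48 in WT, 6.88 and 6.72 with R35A, and 6.8 and 6.46 with R35K. The 120 hr values helped to choose the members and are given as a description. Differences between constructs at 120 hr were not tested.

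Tnc had the highest normalized counts of the members before correction for length. At 1 hr it stood at 15.42 and 15.4 in WT, 16.22 and 16.22 with R35A and 15.49 and 15.43 with R35K. At 18 hr the levels were 15.81 and 15.79, 15.81 and 15.82, and 15.12 and 15.16. R35A was called higher than WT at 1 hr (0.78) and not at 18 hr, while the difference of R35K at 18 hr, -0.56, was short of 1.5-fold. Plpp3 and Plat differed less, with differences from WT of -0.23 to 0.54 and -0.22 to 0.34.

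The second question was whether the members went on changing between 1 and 18 hr within a construct. In WT few members were called. Tfpi2 (1.03 ± 0.20, SE, adjusted p = 1.23e-05) and Timp1 (0.61 ± 0.04, adjusted p = 5.91e-20) were higher at 18 hr, and Mmp3 (-0.96 ± 0.07, adjusted p = 7.43e-19) and Dcn (-0.74 ± 0.05, adjusted p = 4.07e-18) lower. These are 2 and 2 of 29, beside 10.6% of all genes higher and 14.6% lower, and the median member changed by -0.03. The median feeder marker was 0.51 higher, with Col5a1 called higher (0.64) and Lum lower (-1.94). Lum, like Dcn, is a small leucine-rich proteoglycan. Scaled to the feeder markers, 0 members were higher and 13 lower, and Tfpi2 (0.51) and Timp1 (0.08) were no longer called. The call of Timp1 was also lost without the first WT library at 18 hr (0.58).

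With R35A 0 members were higher at 18 than at 1 hr and 3 were lower, beside 1.88% and 3.69% of all genes. They were Tfpi2 (-1.13 ± 0.14, SE, adjusted p = 2.16e-09), the connexin Gjb2 (-0.73) and Elfn1 (-0.68). Gjb2 stood at 7.63 and 7.63 at 1 hr and at 6.93 and 6.85 at 18 hr. The median member changed by -0.31 and the median feeder marker by -0.18, with Col3a1 and Lum called lower. On the feeder scale, Gjb2 (-0.58) and Elfn1 (-0.53) were no longer called.

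R35K had the most calls over this interval, with 12 members lower at 18 hr and Tfpi2 higher (0.67), beside 6.03% of all genes lower and 3.02% higher. Mmp3 (-1.89 ± 0.06, SE, adjusted p = 5.16e-33) and Dcn (-1.82 ± 0.05, adjusted p = 3.95e-37) changed most, followed by Angptl7 (-1.39), Fbln1 (-1.37) and Kcne4 (-1.05). Klhl29, Gjb2, Plat, Stc1, Il1r1 and Lox changed by -0.60 to -0.68. Angptl7, a secreted angiopoietin-like protein, stood at 7.98 and 7.76 at 1 hr and 6.57 and 6.43 at 18 hr. The calls of Gjb2, Il1r1 and Lox were each lost without 1 library, at values of -0.54 to -0.57. On the feeder scale those of Gjb2, Il1r1, Lox, Plat and Stc1 were lost, at -0.52 to -0.57, and 3 members were called higher and 7 lower. Over the same interval the median member changed by -0.35 and the median feeder marker by -0.09, with Lum (-2.57) and Col3a1 (-1.27) called lower.

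A test of the change from 1 to 18 hr against that of WT, added after the values were seen, called 1 member higher and 7 lower for R35A, beside 10% of all genes higher and 7% lower. For R35K it called 0 higher and 10 lower, beside 7.91% and 4.02%. The median feeder marker had a difference in change of -0.61 for R35A and -0.63 for R35K, and the median member -0.31 and -0.43. Scaled to the feeder markers, the split turned to 9 higher and 1 lower for R35A and 3 higher and 1 lower for R35K. The difference in change of Mmp3 was 0.91 ± 0.08 for R35A (SE, adjusted p = 5.25e-14) and -0.94 ± 0.09 for R35K (adjusted p = 1.21e-12). On that scale the value for R35K was -0.32 and was not called.

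Of 14 genes of TGF-β and SMAD signalling that are not members, 2 or 3 were called higher in each comparison of a mutant with WT, beside the shares of all genes given above, and 0 lower. The median difference of the 14 genes was -0.11 to 0.26 on the log2 scale. Other lists had more calls in the same 6 comparisons: 9 to 11 of 16 genes of NF-κB feedback and targets and 7 to 14 of 14 interferon-stimulated genes were called higher. In R35A at 1 hr, 1 interferon-stimulated gene was called lower. These lists hold no member. Of the TGF-β genes, Id2 was called higher than in WT in both mutants at 1, 3 and 18 hr, by 0.83 to 1.15, and so was the receptor gene Tgfbr1, by 0.59 to 1.02. Smad6, an inhibitor of the pathway, was higher at 1 and 3 hr in both (0.70 to 0.90), and Tgfb1 at 18 hr in R35K (0.72).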

How the data were processed

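RNA-seq counts per gene and log2 values for 36 libraries were used. Per the labels and the study's methods, the authors mapped single-end reads of stranded libraries to mm10 with STAR 2.5.0a, counted them per gene with STAR, and deposited raw counts and log2 values normalized with DESeq2 1.14.1. Annotation release and strand setting are not given in the sources used here. The deposited log2 values equal log2(count / size factor + 1) in 100% of values (tolerance 1e-06).

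Members were found from the log2 values. Counts were tested with edgeR 4.0.16 (R 4.3.3): filterByExpr, TMM, 1 coefficient per group, quasi-likelihood F test, Benjamini-Hochberg adjustment over 17277 genes, called at 1.5-fold and adjusted p of 0.05. Alternatives were DESeq2 1.42.0, its size factors, other filters and thresholds, a replicate block, leaving out each library, and scaling to feeder markers. Scripts were tested on simulated data. Symbols were matched to GENCODE vM21 (97.1%).

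Named were the 8 members with the largest rise and fall, up to 3 per direction and comparison with replicates apart, members of gene lists, the 3 genes nearest either side of the thresholds, and the 5 highest at 0 hr; others appear as called. Some members enter the counts and medians but are not reported by name here. The members and lists were chosen with earlier results of these data known.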

Additional observations from a re-analysis of the deposited data

Results flagged for a closer look

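For several members the change from 1 to 18 hr in a mutant differed from that in WT by a test of the difference itself (edgeR's quasi-likelihood test on counts, the same thresholds). All values are log2 differences of the changes, and both mutants share the WT libraries.

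With R35A, Tfpi2 (-2.16), Elfn1 (-1.17), Adam12 (-1.12), Cxcl14 (-0.78), Lox (-0.77), Tnc (-0.70) and Klhl29 (-0.62) changed by less, or fell by more, than in WT, and Mmp3 (0.91) fell by less. Tfpi2 rose by 1.03 in WT and fell by 1.13 in R35A. Scaled to the feeder markers, Tfpi2 and Mmp3 were still called, Elfn1 (-0.49), Adam12 (-0.43), Cxcl14 (-0.10), Lox (-0.09) and Tnc (-0.01) were not, and Klhl29 (0.06) changed sign. The call of Klhl29 was also lost without the second R35A or WT library at 1 hr (-0.46 and -0.51) or at 18 hr (-0.48 and -0.46).

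With R35K, Fbln1 (-1.28), Dcn (-1.08), Angptl7 (-1.06), Mmp3 (-0.94), Kcne4 (-0.93), Klhl29 (-0.85), Lox (-0.80), Adam12 (-0.76) and Tnc (-0.64) had the lower change. Scaled to the feeder markers, Fbln1 was still called, and Dcn (-0.47), Angptl7 (-0.45), Mmp3 (-0.32), Kcne4 (-0.32), Klhl29 (-0.24), Lox (-0.19), Adam12 (-0.15) and Tnc (-0.02) were not. Over the same contrast the median feeder marker differed by -0.63. Fbln1 stood at 8.03 and 7.97 in WT at 1 hr and 8.02 and 7.98 at 18 hr, whereas in R35K it went from 8.49 and 8.60 to 7.28 and 7.10.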

How the results depend on the processing

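The rule found 184 genes at 1.5-fold, 1 at 1.5 on the log2 scale, 73 from WT and R35A alone and 1 on the feeder scale; leaving out a library gave 28 to 31. In the order R35A against WT at 1, 3 and 18 hr, R35K against WT, 18 against 1 hr in WT, R35A and R35K, and the difference in change for R35A and R35K, an adjusted p alone called 26, 18, 17, 21, 18, 22, 20, 24, 24, 21 and 18 members, and a 2-fold threshold 6, 4, 3, 2, 2, 2, 1, 1, 6, 3 and 4. Scaled to the feeder markers, 14 (R35A at 3 hr), 19 (R35A at 18 hr), 11, 16 and 15 (R35K at 1, 3 and 18 hr), 13 (WT, 18 against 1 hr), 1 (R35A, 18 against 1 hr) and 4 (difference in change, R35K) were called; for R35K between 1 and 18 hr the count was 10, and for the R35A difference in change also 10, but with 9 higher and 1 lower in place of 1 and 7. Of 71 calls of named members, 40 were kept on that scale, 27 were lost, and 4 changed sign (Fbln1 0.17, Kcne4 0.0937 and Klhl29 0.0339 in R35K at 18 hr, and Klhl29 0.0603 in the R35A difference in change). Leaving out a library gave 11 to 13, 7 to 8, 6, 5 to 6, 4 to 5, 7 to 8, 4 to 6, 3 to 4, 11 to 14, 7 to 8 and 10 to 11. Among named members, the call of Timp1 in R35A at 18 hr (0.57) was lost with DESeq2's size factors or DESeq2, and that of Timp1 between 1 and 18 hr in WT (0.58) without a low-count filter or without the first WT library at 18 hr. The cause was not tested.

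DESeq2's size factors moved the R35K against WT difference at 18 hr by -0.11 and the split of all calls from 1822 higher and 826 lower to 1482 and 1213; for R35A at 18 hr it went from 1212 and 516 to 1037 and 695, for 18 against 1 hr in WT from 1835 and 2523 to 2541 and 2170, and for the difference in change from 1731 and 1209 to 1426 and 1770 (R35A) and from 1366 and 695 to 1168 and 1005 (R35K). Feeder scaling moved the share of calls that were higher from 33.4 to 70.1% across comparisons to 2.15 to 99.5%.

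Same-numbered replicates did not in general deviate together (median r -0.01 over 153 pairs of groups and 9880 genes). In 17 pairs r was above 0.1, and a median over all pairs cannot show whether some groups were paired. A replicate block left 11 members called for R35A against WT at 1 hr and kept all 71 calls of named members. Member levels of replicates differed by a median of 0.0259 to 0.108 (log2) up to 18 hr and by 0.213 to 0.271 at 120 hr, where depth limits the falls.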
